A study of Drosophila melanogaster with 10 samples.

Results

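The tetraspanin genes of Drosophila melanogaster were followed through 3 perturbations of S2 cells. Members were all genes with a FlyBase identifier whose symbol was Tsp and a digit, TM4SF or lbm. This gave 36 of the 17869 genes listed in 1 set of libraries (set 1) and 28 of the 11799 listed in the other (set 2). The family was put forward because TM4SF was about 20-fold higher after H2A.Z knockdown, so the members' values in that comparison are given as a description, and their count past a threshold is set beside that of all genes with nothing read from it. All 36 members had the same coordinates in the BDGP6 annotation. They lay on 2R (21 genes), 2L (5), 3L (4), 3R (3) and X (3).

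RNA was measured in 10 libraries of S2 cells, a line from late embryos that resembles blood cells (hemocytes). All libraries carried transfected Achaete (Ac), a proneural transcription factor, and its partner Daughterless (Da). In set 1, H2A.Z was knocked down with Ac WT, the control target Luc was knocked down with the variant Ac R29G, and Luc was knocked down with Ac WT (2 libraries each). In set 2 the targets were Arp6, an actin-related protein that helps load H2A.Z onto nucleosomes, and Luc, both with Ac WT (2 libraries each). No group lacks the transfection or the knockdown treatment, and the cells are a single line under an overexpressed factor. Titles of the set 1 controls call them Control KD, and their descriptions and genotype labels give Luc. Set 1 was deposited in table A and table B, each with 1 library of every group. Values below are reads divided by 1 size factor per library, called scaled reads. Differences are on the log2(scaled reads + 1) scale, which understates changes of low genes.

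Tetraspanins are small membrane proteins that cross the membrane several times and gather other proteins into patches of the cell surface. Members of the TspanC8 subgroup, to which Drosophila Tsp3A, Tsp26A and Tsp86D belong, bind the metalloprotease Kuzbanian (ADAM10 in mammals), carry it to the cell surface and so affect the cleavage of Notch. Other members are known from integrin adhesion, from endosomes and exosomes and, in the case of Tsp2A, from the smooth septate junctions of the fly gut.

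Libraries of set 1 held 24500413 to 33712374 reads and those of set 2 held 9396318 to 10608470 reads. His2Av, which encodes H2A.Z, was at 1702 and 789.9 scaled reads in H2A.Z KD, against 6489 and 5679 in Luc KD with Ac WT (tables A and B). Arp6 was at 385.6 and 96.5 in Arp6 KD, against 483.5 and 437.7 in Luc KD of set 2 (replicates 1 and 2). The library taken as Arp6 KD replicate 1 thus held 79.8% of its control, and replicate 2 held 22.0%. The transfected ac was at 81.5% and 104.9% of its control in H2A.Z KD and at 48.5% and 92.9% in Arp6 KD, so it differed widely between libraries of a group. The transfected da was at 69.6% and 70.2% of its control in H2A.Z KD and at 45.9% and 81.7% in Arp6 KD. All 9 hemocyte markers were detected. Their sum was 555016 to 736046 in H2A.Z KD against 464526 to 581097 in its controls. In Arp6 KD the sum was 224891 to 246115 against 193823 to 207996 in its controls. All 9 had log2 differences above 0 in both comparisons, with medians of 0.27 and 0.19, beside -0.01 over all genes. NimC1 had a mean of 2049 scaled reads in H2A.Z KD, against 342 in Luc KD with Ac WT. For eater these means were 3090 and 1887. In H2A.Z KD against its controls, marker sums were 872 to 890 against 872 to 887 for 5 neuron genes, 73.3 to 101 against 61.2 to 62.2 for 4 muscle genes and 501 to 868 against 701 to 1219 for 4 epithelial genes. They were 2032 to 2487 against 1649 to 2090 for 3 germline genes, of which 1, vas, passed as higher, and 3.38 to 6.10 against 2.56 to 4.08 for 3 fat body genes, of which Lsp1alpha was at 0 in every library. The epithelial genes were mixed, since 2 of the 4 had log2 differences above 0 and the median of the 4 was 0.11. In bulk RNA, fewer cells of a type and less RNA per cell cannot be told apart, and whether these differences play a part in the results below was not tested.

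Tsp42Ee (FBgn0029506, BDGP6 2R 7012254 to 7018362, plus strand) was the member with the highest level. Per kilobase of exon it reached 8554 scaled reads in Luc KD with Ac WT of set 1, which ranked 179 of 11889 genes. It made up 48.4% and 48.5% of the family's summed level per kilobase in those 2 libraries, and 60.2% and 54.6% in Luc KD of set 2. Tsp96F followed at 2087 scaled reads per kilobase in the controls of set 1, then Tsp39D at 1175, Tsp86D at 977, Tsp42Ef at 942, Tsp42Ed at 851, Tsp3A at 757, Tsp97E at 668, Tsp66E at 569 and Tsp29Fb at 361. Tsp26A, Tsp2A, Tsp42El, Tsp74F, Tsp5D and lbm lay between 164 and 47.0. TM4SF stood at 2.83 scaled reads per kilobase in the same libraries, below 86.1% of all genes ranked. The family as a whole took 1168 to 1281 RPM (gene reads scaled to a common library total) in the 10 libraries.

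**Figure D1:**
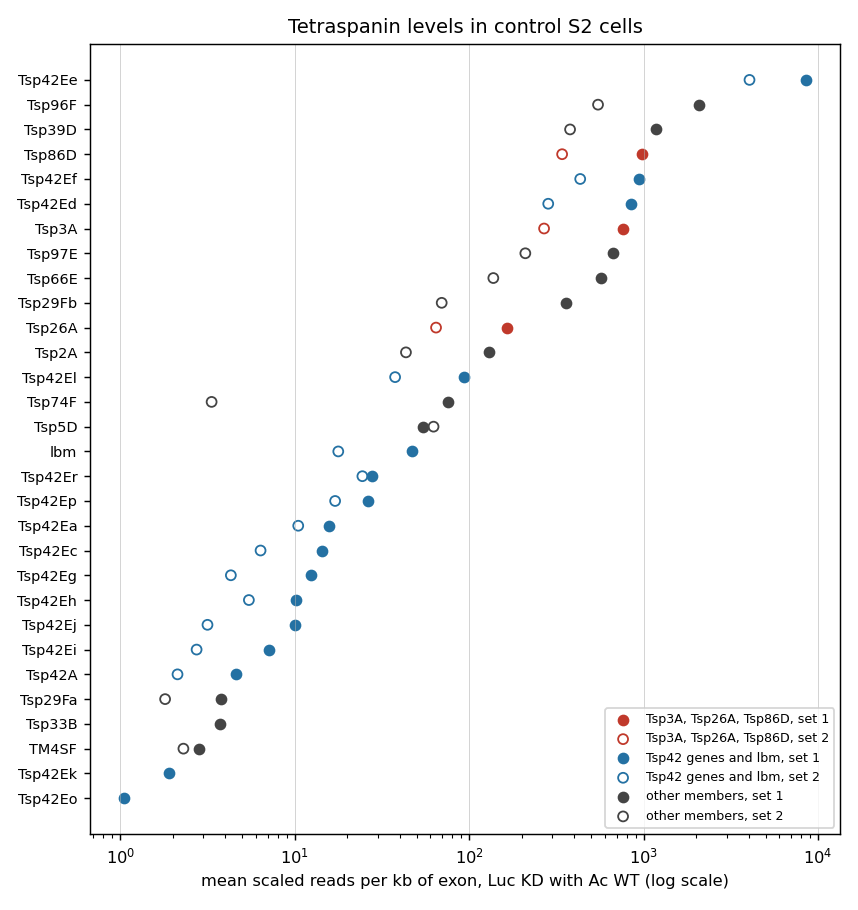
Mean level of each detected tetraspanin gene in Luc KD with Ac WT, as scaled reads per kilobase of exon on a log axis, with filled points for set 1 and open points for set 2 (n = 2 libraries each). Tsp42Ee stands alone at the top and TM4SF near the bottom, and Tsp74F has the widest gap between the sets, which were scaled separately.

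By depth of signal, 18 members were described singly, because they had a mean of at least 50 scaled reads in a set or, for TM4SF, because the family was chosen on it. A further 12 had a mean from 1 to under 50 in set 1, and 6 stayed under 1 (Tsp42Eb, Tsp42En, Tsp42Eq, Tsp47F, Tsp66A and Tsp68C). No read was counted in set 1 for Tsp42Eb, Tsp47F, Tsp66A and Tsp68C. For Tsp47F and Tsp68C a count of 0 allows up to 3 reads, or 0.0170 RPM over the 6 libraries. Tsp42Eb lies within Tsp42Ea, and all 3300 bases of Tsp66A are shared with CG42660 and CG42661 on the same strand, so for these a count of 0 sets no limit. These limits and the intervals below cover counting error only.

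The cluster at cytological position 42E holds 18 members within 73.4 kb of chromosome arm 2R (6992676 to 7066113), and neighbours in it differed widely in level. Tsp42Ed, Tsp42Ee, Tsp42Ef, Tsp42El, lbm and Tsp42Ep, 6 genes, reached a mean of at least 50 scaled reads in a set. Another 9 lay between 1 and 50, and 3 were under 1. Tsp42Ed (FBgn0029507, minus strand) and Tsp42Ef (FBgn0033127, plus strand) flank Tsp42Ee and stood at 851 and 942 scaled reads per kilobase in controls, against 8554 for Tsp42Ee. Some members overlap a neighbour, and no source used here says whether reads were counted by strand. Tsp42Eo lies wholly within Tsp42Ep on the opposite strand, Tsp42Eb lies within Tsp42Ea, and Tsp42Ea also overlaps CG30159 over 1626 bases on the same strand, so the values of these genes are uncertain.

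**Figure D2:**
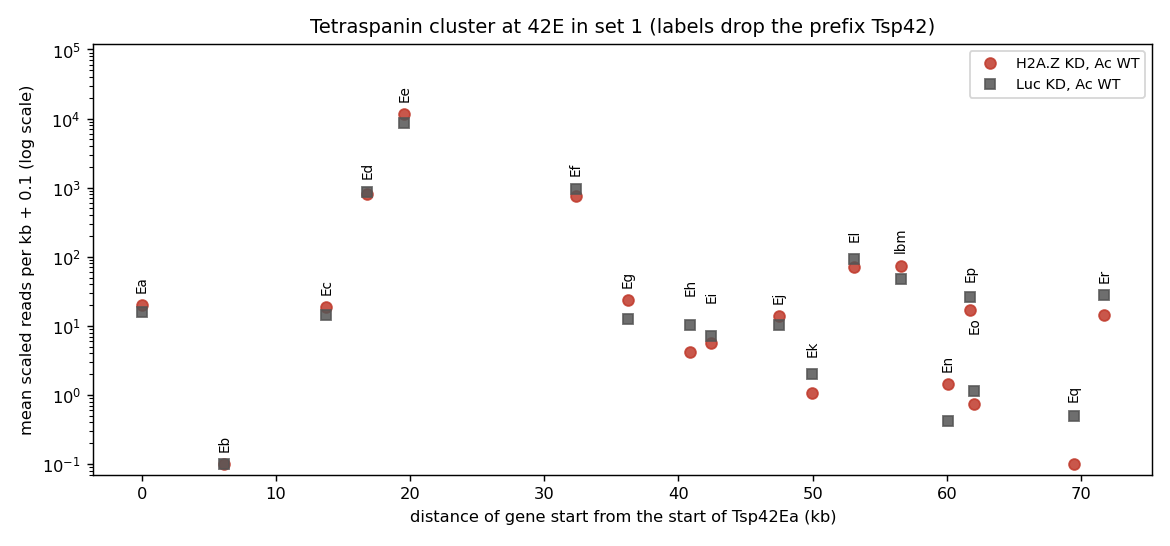
Mean level in set 1 of the 18 tetraspanin genes of the 42E cluster, as scaled reads per kilobase with 0.1 added (log axis), against the distance of each gene start from the start of Tsp42Ea in kilobases; circles are H2A.Z KD and squares Luc KD, both with Ac WT (means of n = 2). Tsp42Ee stands well above Tsp42Ed and Tsp42Ef on either side of it in both groups, and a point at 0.1 is a gene with no read.

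TM4SF (FBgn0020372, BDGP6 2R 23878197 to 23880860, plus strand), which lies on the same arm far from the 42E cluster, was at 119.3 and 168.5 scaled reads in H2A.Z KD, against 7.67 and 6.12 in Luc KD with Ac WT (tables A and B). These values came from 106 and 138 reads in H2A.Z KD and from 9 and 6 reads in Luc KD. Both H2A.Z KD libraries stood far above every other library of set 1, and the groups did not overlap. Group means were 143.9 ± 34.8 in H2A.Z KD and 6.90 ± 1.09 in Luc KD with Ac WT (SD, n = 2 each), a ratio of 20.9. The log2 difference was 4.18 (SE 0.45), the highest of the 11942 genes tested. TM4SF was at 1556% of its control within table A and at 2751% within table B. Per kilobase, it ranked 17 and 16 among the members with a level in the H2A.Z KD libraries (tables A and B), against 26 and 28 in Luc KD with Ac WT. It made up 0.234% and 0.340% of the family's level per kilobase in H2A.Z KD, against 0.0174% and 0.0146% in Luc KD.

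The 6 nearest genes with a mean of at least 1 scaled read had log2 differences between -0.69 and 0.50 in H2A.Z KD. The upper end is CG5597, which had 2 and 2 reads in H2A.Z KD, against 1 and 2 in Luc KD with Ac WT, and the next was 0.22. CG4882, whose gene span overlaps the last 44 bases of TM4SF on the opposite strand, was at 636 and 532.3 scaled reads in H2A.Z KD, against 894.6 and 988.9 in Luc KD with Ac WT. The gene on the other side, ken, a transcriptional repressor, differed by 0.22 on the log2 scale. None of these neighbours was higher by as much as 1 on the log2 scale. CG4882, Mtpbeta, CG5569 and DCP1 were lower, at -0.69, -0.45, -0.32 and -0.16. The authors' deposited table for H2A.Z KD over Luc KD gives TM4SF a log2 fold change of 4.37 (SE 0.51).

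**Figure D3:**
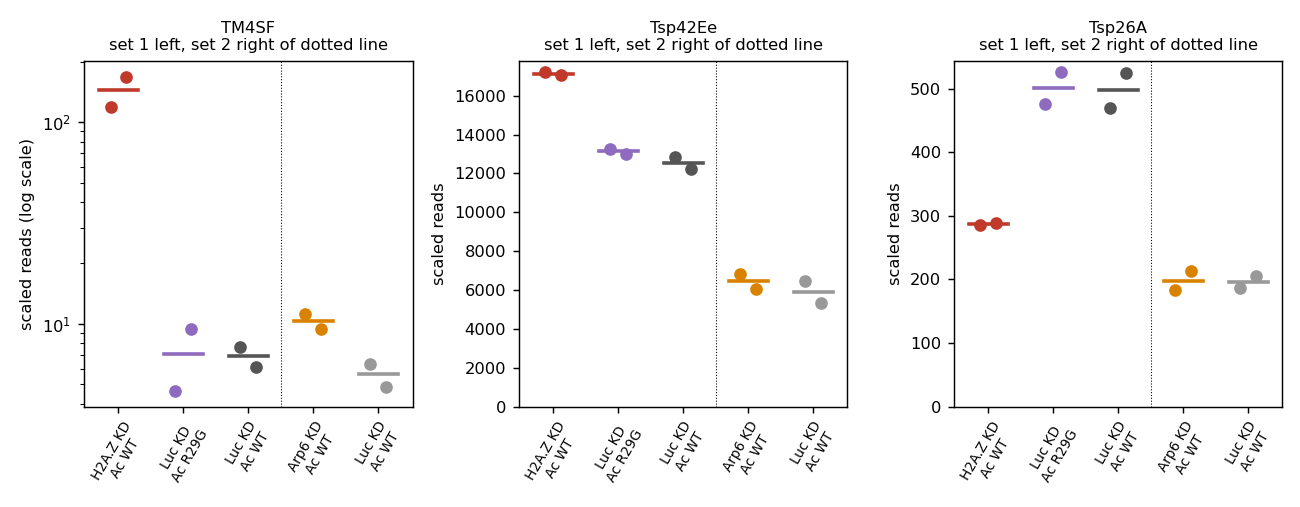
Scaled reads of TM4SF (log axis), Tsp42Ee and Tsp26A (axes from 0), 1 point per library and a bar at each group mean, with set 1 left and set 2 right of the dotted line. In set 1 the H2A.Z KD libraries lie above both other groups for TM4SF and Tsp42Ee and below them for Tsp26A, while Arp6 KD and Luc KD of set 2 lie close together for Tsp42Ee and Tsp26A.

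Tsp42Ee was at 17196 and 17059 scaled reads in H2A.Z KD, against 12826 and 12204 in Luc KD with Ac WT. Its log2 difference was 0.45 (SE 0.08), and the groups did not overlap. Its share of the summed level per kilobase was 56.1% and 57.3% in H2A.Z KD, against 48.4% and 48.5% in Luc KD, a ratio that does not depend on library scaling. The genes on either side of Tsp42Ee in the cluster were lower or level. Tsp42Ef was at 932 and 1084 scaled reads in H2A.Z KD, against 1250 and 1289 in Luc KD, a log2 difference of -0.34 (SE 0.12). Tsp42Ed was at 1039 and 1011 in H2A.Z KD, against 1076 and 1049 in Luc KD, a log2 difference of -0.05 (SE 0.09).

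Of the 3 tetraspanins known to act with Kuzbanian, Tsp26A was well below its control, and Tsp3A and Tsp86D were near theirs. Tsp26A (FBgn0031760, BDGP6 2L 6000228 to 6003738, plus strand) was at 285.9 and 289.3 scaled reads in H2A.Z KD, against 470.3 and 525.6 in Luc KD with Ac WT. This was 60.8% and 55.1% of the control within tables A and B, and a log2 difference of -0.79 (SE 0.13). Tsp26A overlaps Gal on the opposite strand over 165 bases. Tsp3A was at 1288 and 1261 in H2A.Z KD, against 1410 and 1311 in Luc KD. Tsp86D was at 1462 and 1963 in H2A.Z KD, against 1570 and 1929 in Luc KD. The log2 differences of Tsp3A and Tsp86D were -0.09 (SE 0.10) and -0.04 (SE 0.18), smaller than their standard errors.

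The remaining members described singly differed from their controls by less than Tsp26A did. Tsp66E was at 1514 and 1674 scaled reads in H2A.Z KD, against 1360 and 1293 in Luc KD, a log2 difference of 0.26 (SE 0.10). lbm (late bloomer), known from synapse formation by motor axons, was at 58.5 and 105 in H2A.Z KD, against 35.8 and 67.4 in Luc KD, so the groups overlapped although lbm was at 164% and 156% of its control within tables A and B. Tsp2A, a component of smooth septate junctions, was at 72.0 and 105 in H2A.Z KD, against 118.4 and 150 in Luc KD. Its log2 difference was -0.61 (SE 0.27), but all 1591 bases of Tsp2A lie opposite MTPAP, so without strand the signal of the 2 genes cannot be told apart. Tsp42Ep was at 47.3 and 48.8 in H2A.Z KD, against 53.7 and 99.0 in Luc KD, a log2 difference of -0.59 (SE 0.33). In the fit without a block, these last values moved when a library was left out, which also leaves tables A and B unbalanced. In lbm, Tsp2A and Tsp42Ep, table B was above table A in every group. Within each table lbm was higher than its control, and Tsp2A and Tsp42Ep were lower. Tsp42Ep was at -1.03 without the Luc KD library of table A and at -0.16 without that of table B. lbm ranged from 0.22 without the Luc KD library of table A to 1.11 without that of table B, and with an H2A.Z KD library left out it was 1.08 (without table A) or 0.25 (without table B). Tsp2A ranged from -0.34 without the H2A.Z KD library of table A to -0.88 without that of table B. Tsp96F, second in level, was at 8669 and 6118 in H2A.Z KD, against 8208 and 5747 in Luc KD, and in each of the 3 groups table A was higher than table B. The log2 differences of Tsp96F, Tsp39D, Tsp97E, Tsp29Fb, Tsp5D and Tsp74F lay between -0.06 and 0.17, and that of Tsp42El was -0.37. The 12 low members ranged from 0 to 56.2 scaled reads over the libraries of set 1, and none had both groups apart and a log2 difference of at least 1 in size.

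In the other members described singly, H2A.Z KD and Ac R29G each overlapped with Luc KD with Ac WT in set 1. Tsp39D was at 2848 and 2488 scaled reads in H2A.Z KD and at 2786 and 2937 with Ac R29G, against 2690 and 2853 in Luc KD with Ac WT. Tsp97E was at 1898 and 1555 in H2A.Z KD and at 1708 and 1844 with Ac R29G, against 1879 and 1642 in Luc KD with Ac WT. Tsp29Fb was at 532.4 and 384.6 in H2A.Z KD and at 447.8 and 389.9 with Ac R29G, against 495.9 and 391.9 in Luc KD with Ac WT. These abundant genes differed little between groups. Tsp74F was at 117.1 and 135.5 in H2A.Z KD and at 101.3 and 135.1 with Ac R29G, against 92.0 and 136.8 in Luc KD with Ac WT. Tsp5D was at 123.8 and 102.6 in H2A.Z KD and at 91.1 and 113.6 with Ac R29G, against 105.7 and 122.5 in Luc KD with Ac WT. Tsp42El was at 61.9 and 89.1 in H2A.Z KD and at 95.7 and 136 with Ac R29G, against 75.8 and 121.4 in Luc KD with Ac WT. In Tsp74F and Tsp42El table B was above table A in every group.

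In the limma fit over all genes (Benjamini-Hochberg adjustment, 0.05), 3 of the 30 members with a mean of at least 1 were past the threshold in H2A.Z KD, with TM4SF and Tsp42Ee higher and Tsp26A lower. Over all 11942 genes the share was 4.65%, with 2.45% higher and 2.19% lower, and since the family was chosen on this contrast nothing is read from the count. With table as a block, 7 members passed (TM4SF, Tsp42Ee, Tsp66E and lbm higher, Tsp26A, Tsp2A and Tsp42Ef lower), beside 37.7% of all genes (18.4% higher and 19.3% lower). When any 1 of the 6 libraries was left out, 0 or 1 member passed: 0 without H2A.Z KD table B or without either Luc KD library with Ac WT, and 1 without H2A.Z KD table A or without either R29G library. Over all genes the calls fell to between 4 and 92 in those fits, against 555, while the log2 difference of TM4SF stayed between 3.94 and 4.43. The median log2 difference was -0.04 over the 30 members and -0.01 over all genes. Groups did not overlap for 4 higher and 7 lower members, beside 25.0% and 27.0% of all genes.

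**Figure D4:**
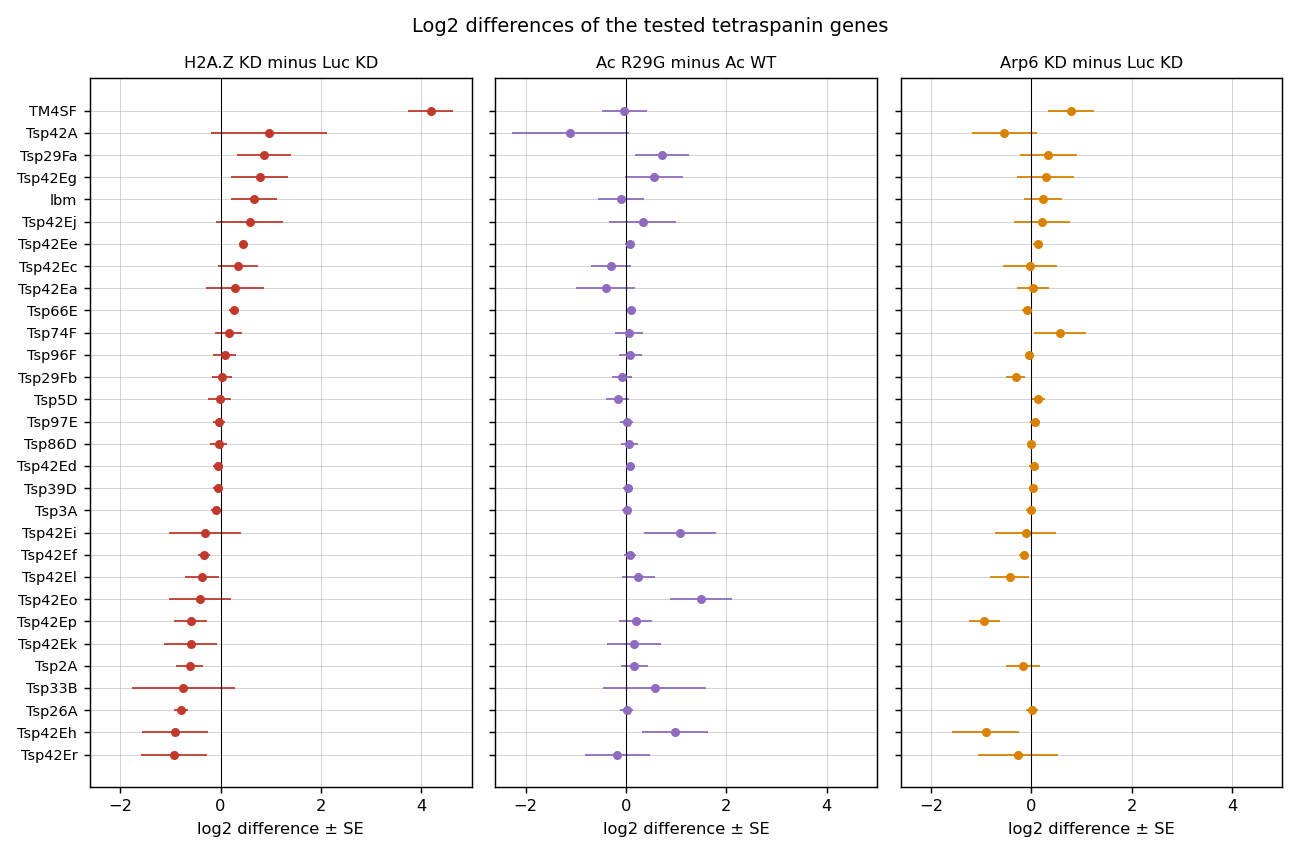
Log2 differences with their standard errors for the tested tetraspanin genes, in 3 panels for H2A.Z KD minus Luc KD, Ac R29G minus Ac WT and Arp6 KD minus Luc KD. TM4SF at 4.18 in the first panel lies apart from all other points, and wide bars mark genes with few reads.

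No tetraspanin passed the test between Ac R29G and Ac WT. TM4SF was at 4.65 and 9.47 scaled reads with Ac R29G, against 7.67 and 6.12 with Ac WT. The values overlapped, the log2 difference was -0.03 (SE 0.45), and adjusted p was 1.00 (limma). Tsp42Ee was at 13265 and 13010 with Ac R29G, against 12826 and 12204 with Ac WT, a log2 difference of 0.07 (SE 0.08). Tsp26A was at 476.6 and 526.8 with Ac R29G, against 470.3 and 525.6 with Ac WT. The 18 members described singly had log2 differences between -0.16 and 0.25.

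None of 30 members passed in that comparison by limma (lowest adjusted p = 1.00), none of 27 by edgeR and none of 32 by DESeq2, which called 0% of 11942, 0 of 9439 and 8 of 14391 genes. At an unadjusted p under 0.05 limma had 1 member, Tsp42Eo, beside 240 of all genes. Tsp42Eo passed the filter on low values through the R29G libraries, so its p carries no weight. It was at 4.65 and 4.30 scaled reads with Ac R29G (5 and 5 reads), against 0.852 and 1.02 with Ac WT (1 and 1 reads). Tsp42Ei, the other low member whose groups did not overlap and whose log2 difference reached 1, was at 14.9 and 21.5 with Ac R29G, against 4.26 and 14.3 with Ac WT. Its log2 difference of 1.08 was 0.31 without the Luc KD library of table A and 1.85 without that of table B. With table as a block 0.620% of all genes (0.218% higher and 0.402% lower) and 0 members passed, and the lowest adjusted p among members was 0.626. Groups did not overlap for 7 higher and 1 lower member, beside 11.9% and 11.5% of all genes. The controls of this comparison are the same Luc KD libraries as above, so the 2 comparisons are not independent. The authors' deposited table, which runs as Ac WT over Ac R29G, lists 32 members with a lowest adjusted p of 1 and 0 past the threshold.

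No tetraspanin passed the test in Arp6 KD. TM4SF was at 11.2 and 9.46 scaled reads in Arp6 KD (11 and 10 reads), against 6.35 and 4.86 in Luc KD of set 2 (6 and 5 reads). Both Arp6 KD libraries were above both controls, at 177% and 194% of the control with the same replicate number. The log2 difference of 0.78 (SE 0.45) had an adjusted p of 0.721 (limma) and ranked 275 of 10605 genes from the top. The ratio of reads, scaled for depth, was 1.85 with an exact 95% counting interval of 0.852 to 4.25. The interval includes 1 and covers counting error only, so it does not decide whether TM4SF differed.

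Tsp42Ep had the lowest log2 difference among members described singly, -0.94 (SE 0.31, adjusted p = 0.666, limma). It was at 20.4 and 30.3 scaled reads in Arp6 KD, against 41.3 and 57.4 in Luc KD, which was 49.5% and 52.7% of control and without overlap. Tsp42Ee was at 6819 and 6063 in Arp6 KD, against 6487 and 5337 in Luc KD, a log2 difference of 0.13 (SE 0.10). Tsp26A was at 183.6 and 212.8 in Arp6 KD, against 186.2 and 205.2 in Luc KD, with a log2 difference of 0.02 (SE 0.12). Tsp42Ef was at 519.3 and 525.9 in Arp6 KD, against 614.6 and 551.5 in Luc KD, with a log2 difference of -0.16 and adjusted p of 0.706 (limma).

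Abundant members were close between the groups of set 2. Tsp96F was at 1809 and 1739 scaled reads in Arp6 KD, against 1822 and 1839 in Luc KD, lower without overlap. Tsp66E was at 295.8 and 305.5 in Arp6 KD, against 325.8 and 315.1 in Luc KD, also lower without overlap. Tsp39D was at 865.1 and 962.8 in Arp6 KD, against 889.7 and 896.7 in Luc KD. Tsp3A and Tsp86D, which act with Kuzbanian, had log2 differences of -0.0036 (SE 0.09) and -0.01 (SE 0.08). Among less abundant members, Tsp29Fb was at 75.5 and 62.4 in Arp6 KD, against 84.6 and 86.6 in Luc KD, with a log2 difference of -0.31 (SE 0.18, adjusted p = 0.723, limma). Tsp2A was at 28.6 and 55.8 in Arp6 KD, against 43.4 and 46.7 in Luc KD, and lbm at 23.5 and 20.8 in Arp6 KD, against 13.8 and 25.3 in Luc KD. In both of these genes the groups overlapped. Tsp5D was at 136.7 and 154.2 in Arp6 KD, against 131.2 and 132.3 in Luc KD, and the groups did not overlap, with a log2 difference of 0.14 (SE 0.13). Tsp74F was at 11.2 and 5.67 in Arp6 KD (11 and 6 reads), against 5.29 and 4.86 in Luc KD (5 and 5 reads), higher without overlap.

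None of 27 members passed in set 2 by limma, none of 18 by edgeR, which did not test TM4SF, and none of 28 by DESeq2. Over all genes limma called 0.0283% of 10605 (0.0189% higher and 0.00943% lower), edgeR 3 of 8087 and DESeq2 16 of 11799. At an unadjusted p under 0.05 limma had 1 member, Tsp42Ep, beside 739 of all genes. No low member of set 2 had both groups apart and a log2 difference of at least 1 in size. Groups did not overlap for 4 higher and 6 lower members, beside 18.6% and 20.4% of all genes. The median log2 difference was -0.0036 over members and -0.01 over all genes. The Arp6 KD libraries differed in how much Arp6 they still held, and without replicate 1 the TM4SF log2 difference was 0.67.

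Genes that work with tetraspanins were followed as lists, beside the 2.45% of all genes higher and 2.19% lower by limma in H2A.Z KD, or 18.4% higher and 19.3% lower with table as a block. Of 9 genes for ADAM proteases and Notch cleavage, 0 passed in H2A.Z KD by limma, and with table as a block kuz, Kul and Ser were higher (18.4% of all genes) and N and Dl lower (19.3% of all genes). kuz, the protease bound by Tsp26A, was at 18727 and 16538 scaled reads in H2A.Z KD, against 13669 and 12113 in Luc KD, a log2 difference of 0.45 (SE 0.12, adjusted p = 0.0763, limma). Dl, a Notch ligand, was at 11.3 and 15.9 in H2A.Z KD, against 31.5 and 71.4 in Luc KD (log2 difference -1.76, SE 0.48, adjusted p = 0.0861, limma). In R29G and in Arp6 KD, 0 of the 9 passed. The lists were chosen with earlier results of these data known, so p-values of their genes in H2A.Z KD are given as a description. Of the smooth septate junction genes, mesh, Ssk and CG13704 (hoka), 0 passed in any comparison, and the median log2 difference in H2A.Z KD was 0.44.

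Of 7 integrin subunits, 1 passed as higher in H2A.Z KD by limma (2.45% of all genes). All 7 had log2 differences above 0, beside a median of -0.01 over all genes. This list was chosen with earlier results of these data known, so its p-values in H2A.Z KD are given as a description. ItgaPS5, an alpha subunit, was at 817.2 and 809.4 scaled reads in H2A.Z KD, against 161.9 and 174.5 in Luc KD with Ac WT, a log2 difference of 2.27 (SE 0.14, adjusted p = 0.00297, limma). It was at 143.8 and 115.4 in Arp6 KD, against 69.8 and 85.6 in Luc KD of set 2, with a log2 difference of 0.73 (SE 0.18, adjusted p = 0.575, limma). With table as a block all 7 integrin subunits passed in H2A.Z KD, with a median log2 difference of 0.52, beside 18.4% of all genes. In R29G and in Arp6 KD, 0 of 7 passed. Of 13 ESCRT and endosome genes, 0 passed in any comparison by limma, and with table as a block 6 were higher and 1 (lsn) lower in H2A.Z KD, beside 18.4% and 19.3% of all genes. Of the 9 hemocyte markers, 2 passed as higher in H2A.Z KD (2.45% of all genes) and 7 with table as a block (18.4% of all genes), and their part in these results was not tested.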

How the data were processed

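RNA sequencing of S2 cells was analysed from 10 libraries in 5 groups of 2, with groups taken from the labels. The authors deposited per-library values as a size-factor-scaled signal, in 3 tables. Whole reads were recovered from 100% of the values (tolerance 0.001 reads). Tables A and B were rescaled together by median of ratios, and set 2 kept its deposited values. The set 1 columns are unnumbered, and the Luc KD ones were matched to the set 1 controls because R29G stands in the same table. Tables A and B are marked 1st and 2nd, which was not read as a replicate number. The set 2 columns are marked 1st and 2nd, which was read as replicates 1 and 2. The authors also deposited 2 tables of comparisons with log2 fold changes, a score and p-values, per the file headers. The submitters' processing notes name Partek and BDGP6, without a role. No source used here gives the aligner, the counter, strand use or the kit of each library (MGIEasy or TruSeq).

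The main test was limma 3.58.1 (R 4.3.3) with a trend on log2(value + 1), on genes averaging at least 1 scaled read, at a threshold of 0.05, with 1 spread for the 3 groups of set 1 and no block. Recovered reads were also tested with edgeR 4.0.16 and DESeq2 1.42.0. Python 3.11.15 with pandas 2.3.3 handled tables. Same-table deviations correlated at 0.576, 0.623 and 0.646 (9103 genes), so set 1 was read as paired by table, from the deposited tables and not from the labels. The main fit did not use this pairing, so its standard errors include differences between tables. Calls with table as a block are given beside it. In set 2 the correlation was 0.50 (7976 genes) over only 2 pairs. Whether libraries are separate cultures is not stated, so a p-value here reflects library-to-library spread that may be technical.

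Members and gene lists were chosen with earlier results of these data known. Members with a mean of at least 50 and TM4SF are given singly. Lower members are named where groups do not overlap and the log2 difference is at least 1. Symbols nct and hoka were matched through RefSeq synonyms.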

Additional observations from a re-analysis of the deposited data

How the results depend on the processing

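The count of members past the threshold in H2A.Z KD, 3 in the reported fit, was 1 with quantile normalization, 0 with limma without an intensity trend, 7 with table as a replicate block (the pairing by table) and 1 with only the 2 groups compared in the fit. Leaving out 1 library at a time gave 0 to 1. The other alternatives (pseudocount of 0.5 or 4, no filter or a mean of at least 10, TMM scaling, edgeR and DESeq2) gave 3. The cause was not tested, except that leaving out a library or a group leaves fewer samples. Counts of members were 0 in R29G and in Arp6 KD under every alternative run, the replicate block included. The TM4SF log2 difference in R29G, -0.03, was 0.073 with quantile normalization, 0.029 with edgeR and 0.038 with DESeq2, and leaving out 1 library at a time it ranged from -0.48 to 0.41 (0.41 without the R29G library of table A, 0.11 without the Luc KD library of table A). It rests on 16 reads against 15. TM4SF in H2A.Z KD stayed between 3.75 and 4.43 and in Arp6 KD between 0.58 and 0.95. Over all genes in H2A.Z KD, 293 were higher and 262 lower, against 234 and 340 with TMM scaling, which moved the median of all genes to -0.05. With 2 libraries per group and 15 (set 1) or 11 (set 2) control reads, small differences of TM4SF and of the low members were not detectable.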

Other observations

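The 2 sets of control libraries, both Luc KD with Ac WT by their genotype labels and column names (the titles of set 1 say Control KD), differed in some tetraspanins more than in the rest of the family. In RPM, Tsp74F was at 0.503 and 0.533 in set 2, against 3.21 and 5.16 in set 1, a ratio of 0.124. Tsp5D was at 13.2 and 13.7 in set 2, against 3.69 and 4.62 in set 1, a ratio of 3.24. TM4SF was at 0.503 and 0.640 in set 2, against 0.231 and 0.268 in set 1, a ratio of 2.29 that rests on 11 and 15 reads. Ratios of the other members described singly lay between 0.545 (Tsp29Fb) and 1.80 (Tsp42Ep). Among the low members Tsp42Er had a ratio of 2.44, which rests on replicate 2 of set 2. Tsp42Er was at 0.747 and 3.52 in set 2 (7 and 35 reads), against 0.476 and 1.27 in set 1 (16 and 33 reads). The sets differ in depth, which RPM divides out, and RPM does not use their separate scaling. The kit of each library is not known, and the difference between the sets was not tested. It touches no comparison reported, since each was made within a set.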
